A study of Mus musculus with 6 samples.

Results

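Bola1, Wdfy1, Trim26, Ypel2 and Tcp11l2 were selected as genes whose counts split 6 mouse liver tumors most clearly by genotype. The choice was made on the measured counts of these same tumors, so their genotype difference is given as a description and carries no test. They are 5 of the 34745 genes listed, and 5 of the 13892 genes with enough counts to be tested. RNA-seq had been run on 3 tumors of Prmt3f/f mice (labelled WT) and 3 tumors of Prmt3LKO mice (labelled Prmt3-KO), to ask what the loss of PRMT3, a protein arginine methyltransferase, does to liver cancer. Both groups carry loxP-flanked Prmt3 alleles. The Prmt3LKO mice also carry Alb-Cre, a Cre recombinase under the albumin promoter that deletes Prmt3 in hepatocytes and leaves it in other cells of a tumor. Males of both groups received diethylnitrosamine (DEN, 25 mg/kg) at 2 weeks of age and repeated carbon tetrachloride (10% solution, 0.5 ml/kg) from 6 weeks, and tumors were taken at 26 weeks. The floxed mice came from Shanghai Model Organisms Center and the Alb-Cre mice from Jackson Laboratory. The strain of the floxed mice is not given in the sources used here, and the labels do not say that each tumor came from its own mouse.

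The 5 genes have different known roles. BOLA1 is a mitochondrial protein that partners glutaredoxin 5 (GLRX5) in the handling of iron-sulphur clusters, the cofactors of respiratory chain enzymes. WDFY1 sits on endosomes through its FYVE domain and helps to recruit the adaptor TRIF to the Toll-like receptors TLR3 and TLR4. TRIM26 is a RING-type E3 ubiquitin ligase encoded in the major histocompatibility complex and linked to signaling that ends in type I interferon. YPEL2 is one of the small zinc-binding Yippee-like proteins, and TCP11L2 is a relative of the testis protein TCP11; little is known of either in liver.

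The libraries held 18440244 to 27976598 counts. Albumin (Alb) took 11.0% to 16.1% of them, so hepatocyte-type RNA was present in every tumor. Pearson's r of log2 CPM (counts divided by the scaled library size, per 1000000) was 0.946 to 0.971 within groups and 0.948 to 0.972 across groups, as a description over genes. Prmt3 had 143, 182 and 289 counts in Prmt3f/f tumors 7, 66 and 71. The Prmt3LKO tumors 92, 93 and 94 held 49, 45 and 76 counts of it, each below every Prmt3f/f tumor. The mean Prmt3 level in Prmt3LKO was 34.3% of that in Prmt3f/f, a log2 fold change of -1.55 (SE 0.29), which edgeR's quasi-likelihood test put at an adjusted p of 0.592. In a whole tumor, fewer cells of a type and less RNA per cell cannot be told apart.

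Bola1 (ENSMUSG00000015943) lies on the minus strand of chromosome 3 of GRCm38, at chr3:96196588-96219709. It had 259, 211 and 334 counts in Prmt3f/f tumors 7, 66 and 71, and 47, 51 and 38 counts in Prmt3LKO tumors 92, 93 and 94. All Prmt3LKO tumors were low, and the highest of them, at 51 counts, was far below the 211 counts of the lowest Prmt3f/f tumor. After scaling for library size, the levels were 11.9, 9.84 and 11.7 CPM in Prmt3f/f against 2.68, 2.30 and 1.91 CPM in Prmt3LKO. The means were 11.2 ± 1.16 CPM (SD, n = 3) and 2.30 ± 0.388 CPM (SD, n = 3). Bola1 was thus 4.86-fold lower in Prmt3LKO, with a log2 fold change of -2.28 (SE 0.21), and 1.84 on the log2 CPM scale separated the nearest tumors of the groups.

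Wdfy1 (ENSMUSG00000073643) occupies chr1:79702262-79776143 on the minus strand. Its counts were 711, 538 and 750 in the Prmt3f/f tumors and 164, 220 and 161 in the Prmt3LKO tumors. The groups did not overlap, and the Prmt3LKO values lay close together. In CPM the levels were 32.8, 25.1 and 26.4 against 9.37, 9.92 and 8.09. The mean of Prmt3f/f was 28.1 ± 4.14 CPM (SD, n = 3) and that of Prmt3LKO was 9.12 ± 0.940 CPM (SD, n = 3), a level 3.08-fold lower. The log2 fold change was -1.62 (SE 0.17), and the gap between the groups was 1.33.

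Ypel2 (ENSMUSG00000018427, chr11:86936425-86993707, minus strand) had 293, 305 and 368 counts in Prmt3f/f. In Prmt3LKO it had 120, 121 and 121 counts, from libraries of different size. The levels were 13.5, 14.2 and 12.9 CPM in Prmt3f/f and 6.85, 5.46 and 6.08 CPM in Prmt3LKO. The means were 13.6 ± 0.645 CPM and 6.13 ± 0.701 CPM (SD, n = 3 each), a level 2.21-fold lower in Prmt3LKO. The log2 fold change was -1.15 (SE 0.16), with a gap of 0.91 on the log2 CPM scale. The coefficient of variation of its CPM was 4.76% in Prmt3f/f, where counting error of the reads is 5.57%, and 11.4% in Prmt3LKO, where counting error is 9.10%.

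Tcp11l2 (ENSMUSG00000020034, chr10:84576626-84614359, plus strand) had 607, 640 and 781 counts in Prmt3f/f and 273, 341 and 204 counts in Prmt3LKO. Tumor 94 was the lowest, at 10.2 CPM, while tumors 92 and 93 were at 15.6 and 15.4 CPM. All 3 stayed below the Prmt3f/f tumors, at 28.0, 29.8 and 27.4 CPM. The means were 28.4 ± 1.25 CPM and 13.7 ± 3.03 CPM (SD, n = 3 each). Tcp11l2 was 2.07-fold lower in Prmt3LKO, with a log2 fold change of -1.05 (SE 0.19) and a gap of 0.81. Its coefficient of variation in Prmt3LKO was 22.0%, above the 6.06% of counting error.

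Trim26 (ENSMUSG00000024457, chr17:36837134-36859398, plus strand) was the 1 gene of the 5 that was higher in Prmt3LKO. It had 294, 302 and 439 counts in Prmt3f/f and 557, 771 and 525 counts in Prmt3LKO. The levels were 13.6, 14.1 and 15.4 CPM in Prmt3f/f and 31.8, 34.8 and 26.4 CPM in Prmt3LKO, so the lowest Prmt3LKO tumor was above the highest Prmt3f/f tumor. The means were 14.4 ± 0.962 CPM and 31.0 ± 4.26 CPM (SD, n = 3 each), a level 2.16-fold higher. The log2 fold change was 1.11 (SE 0.16), with a gap of 0.77.

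**Figure D1:**
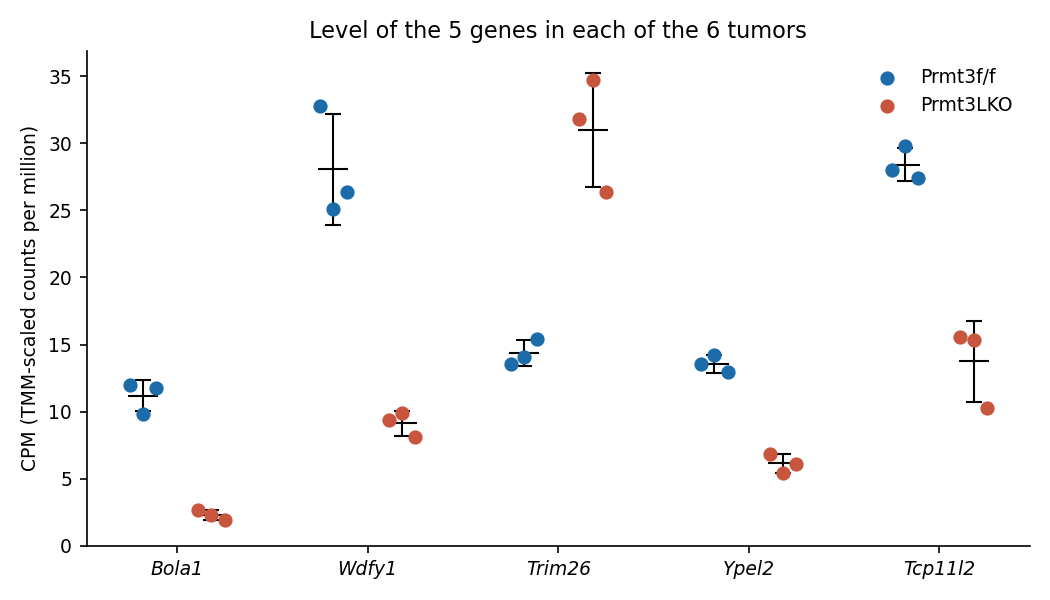
Level of the 5 genes in CPM scaled by TMM (vertical axis, from 0), by gene; each point is 1 tumor, the horizontal mark is the mean and the bar the SD of the 3 tumors of a group. Bola1, Wdfy1, Ypel2 and Tcp11l2 sit lower and Trim26 higher in all 3 Prmt3LKO tumors than in any Prmt3f/f tumor.

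The order of the 5 genes by level differed between the groups. Levels of different genes are compared per length, in FPKM (CPM per kilobase of transcript, on the library totals of the authors). The gene lengths behind the FPKM differ from those of the GENCODE M21 annotation for all of the 5 genes but Ypel2. The order and overlaps between genes therefore hold for the authors' lengths alone. In Prmt3f/f, Bola1 (6.26 to 8.01 FPKM) and Tcp11l2 (6.79 to 7.09 FPKM) were highest and overlapped. Wdfy1 (3.01 to 4.14 FPKM) and Ypel2 (2.71 to 2.87 FPKM) came next without overlap, and Trim26 was lowest, at 1.22 to 1.40 FPKM. In Prmt3LKO, Tcp11l2 (2.46 to 3.90 FPKM) and Trim26 (2.31 to 3.22 FPKM) were highest and overlapped. Bola1 (1.23 to 1.66 FPKM) and Ypel2 (1.17 to 1.34 FPKM) followed and overlapped, and Wdfy1 (0.98 to 1.27 FPKM) overlapped both. The median gene tested had a mean of 2.43 FPKM over the 6 tumors.

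A gene was called where the adjusted p was under 0.05 and the fold change at least 2 or at most 0.5. edgeR called 0 of 13892 genes (0%), limma-voom also called 0, and DESeq2 called 43 lower and 9 higher. At an unadjusted p under 0.05, 607 genes (4.37%) were lower and 305 (2.2%) higher in Prmt3LKO. The groups did not overlap for 917 genes lower (6.6%) and 772 genes higher (5.56%) in Prmt3LKO. All 5 selected genes are among these, as their selection required, and nothing is read from that. By the size of the F statistic, Bola1 ranked 1, Wdfy1 2, Trim26 4, Ypel2 5 and Tcp11l2 10 of all genes. By the gap between groups they ranked 2, 9, 46, 25 and 37, so many genes outside the selection were separated as widely as Trim26 or Tcp11l2.

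The genes of highest F outside the selection were Apc at rank 3, Plek at rank 6 and Serpina3g at rank 7. Apc, a brake on Wnt signaling, had 702, 890 and 1221 counts in Prmt3f/f and 246, 325 and 209 in Prmt3LKO, with a log2 fold change of -1.57 (SE 0.19) and a gap of 1.14. Plek, a protein kinase C substrate of platelets and leukocytes, was at -1.07 with a gap of 0.70. Serpina3g, a serine protease inhibitor, was at -1.08 with a gap of 0.71.

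The ranks moved with the method and with the tumors used. Over 11 other fits, Bola1 ranked first in 9 and never below 3, and Wdfy1 ranked 2 to 4. Trim26 ranked 4 to 19 and Ypel2 4 to 18. Tcp11l2 ranked 8 to 61 and was within the first 20 in 7 of the 11. Its lowest ranks, 57, 45 and 61, came in the fits without Prmt3f/f tumor 7, 66 or 71. The log2 fold changes themselves moved little when 1 tumor was left out: -2.40 to -2.16 for Bola1, -1.70 to -1.50 for Wdfy1, 1.02 to 1.21 for Trim26, -1.23 to -1.07 for Ypel2 and -1.15 to -0.87 for Tcp11l2. Choosing genes for a clear split of these same tumors favors such small movement.

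**Figure D2:**
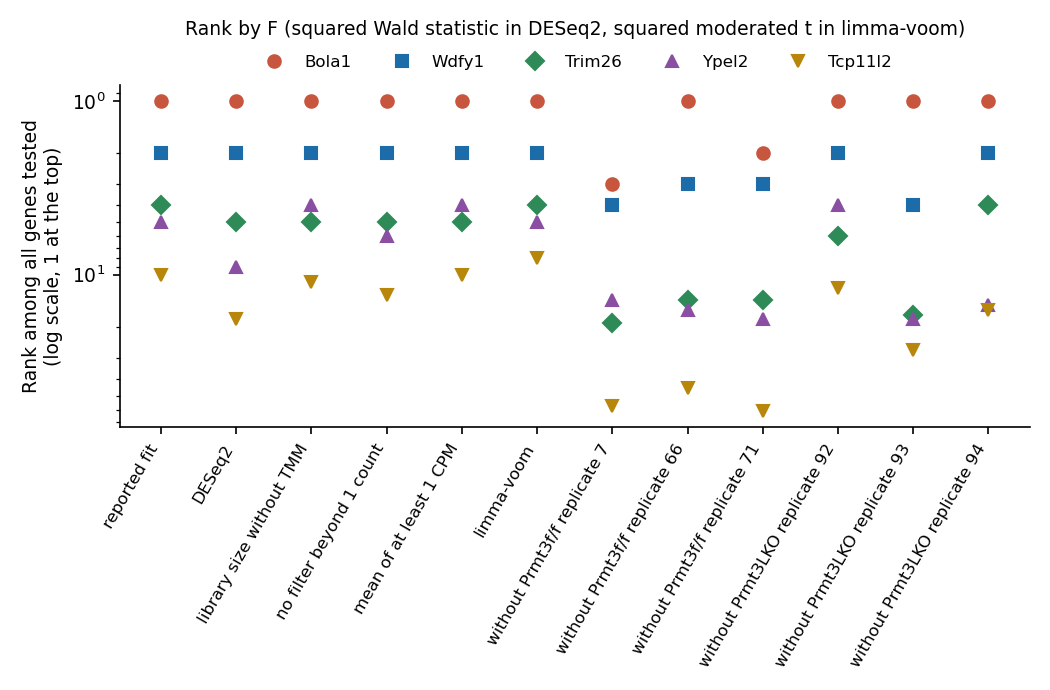
Rank of the 5 genes by F among all genes tested (vertical log axis, rank 1 at the top) in the reported fit and in 11 other fits (horizontal axis); each symbol is 1 gene in 1 fit. Bola1 and Wdfy1 stay at ranks 1 to 4, while Tcp11l2 falls as far as rank 61 without Prmt3f/f tumor 71.

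The genes around the 5 loci were examined next. The 5 genes lie on 5 chromosomes (3, 1, 17, 11 and 10), none of them chromosome 7, which carries Prmt3. Within 500 kb of their loci the table lists 168 other genes, and 64 of them were tested; 65 were at 0 counts throughout. Of the 64, 1 was lower and 0 were higher at an unadjusted p under 0.05, beside the 4.37% and 2.2% of all genes. The groups did not overlap for 1 gene lower and 1 higher, beside 6.6% and 5.56% of all genes. The median absolute log2 fold change of the 64 neighbors was 0.15, against 0.18 over all genes tested, and 2 of the 64 (3.13%) had an absolute log2 fold change of at least 1, against 3.89% of all genes.

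Bola1 had the most tested neighbors, 34 of 66 listed. Sv2a, a synaptic vesicle gene 1.07 kb to its left, had 3, 11 and 17 counts in Prmt3f/f and 1, 15 and 3 in Prmt3LKO. Hist2h2be, a histone H2B gene 1.41 kb to the right, had 49, 57 and 51 counts in Prmt3f/f and 37, 31 and 29 in Prmt3LKO, a log2 fold change of -0.43 (SE 0.33) with overlapping CPM. Polr3c, a subunit of RNA polymerase III 491.8 kb to the right, was the neighbor lower in all Prmt3LKO tumors, at -0.27 (SE 0.15). Gm17690, a predicted gene 24.2 kb to the left with 8 to 21 counts per tumor, was the neighbor higher in all of them. The histone gene Hist2h2aa1, 25.8 kb to the right, had 0, 0 and 264 counts in Prmt3f/f and 2, 137 and 1204 in Prmt3LKO, a spread that split tumors within both groups. Hist2h2aa1 and Gm20632 (1.17) were the neighbors with an absolute log2 fold change of at least 1. Gm15444, which overlaps the Bola1 locus, had 0 counts in all 6 tumors.

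Only 4 of the 14 neighbors of Wdfy1 were tested. Mrpl44, a mitochondrial ribosomal protein gene, overlaps the start of Wdfy1 on the opposite strand, head to head, and shares 126 exon bases with it. Mrpl44 had 406, 308 and 441 counts in Prmt3f/f and 316, 344 and 342 in Prmt3LKO, a log2 fold change of 0.06 (SE 0.16). Whether the authors counted by strand is not given in the sources used here, and reads in the shared bases could then not be told apart. Serpine2, a protease inhibitor 18.1 kb to the right, had 235, 202 and 221 counts in Prmt3f/f and 54, 75 and 176 in Prmt3LKO. Its log2 fold change was -0.87 (SE 0.41), with groups that overlapped in CPM. That value was -1.52 without Prmt3LKO tumor 94, -0.61 without tumor 92 and -0.64 without tumor 93. Ap1s3, an adaptor subunit 30.3 kb to the left, was at -0.36 (SE 0.53).

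Trim26 lies in a dense part of the major histocompatibility complex, where 44 of 61 neighbors were at 0 counts throughout and 8 were tested. None was tested to its left. Rnf39, another RING-finger gene 83.5 kb to the right, was at -0.19 (SE 0.30), with 392, 599 and 858 counts in Prmt3f/f and 509, 522 and 279 in Prmt3LKO. The 8 tested neighbors ranged from -0.66 to 0.23 in log2 fold change, and their groups overlapped in every case.

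Of 13 tested neighbors of Ypel2, Gdpd1, a phosphodiesterase gene 40.2 kb to the right, had a log2 fold change of -0.77 (SE 0.31), or -0.51 without Prmt3f/f tumor 7. Its counts were 342, 268 and 198 in Prmt3f/f and 96, 171 and 146 in Prmt3LKO, so that the groups overlapped in CPM. It was the 1 neighbor of the 64 at an unadjusted p under 0.05, and edgeR's adjusted p was 0.740. The helicase gene Dhx40, 128.7 kb to the left, was at -0.04 (SE 0.13). Beside Tcp11l2, Polr3b (8.08 kb to the right) was at -0.03 (SE 0.18) and Ckap4 (42.6 kb to the left) at 0.02 (SE 0.28). All 5 tested neighbors of Tcp11l2 overlapped between groups, from -0.13 to 0.51.

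**Figure D3:**
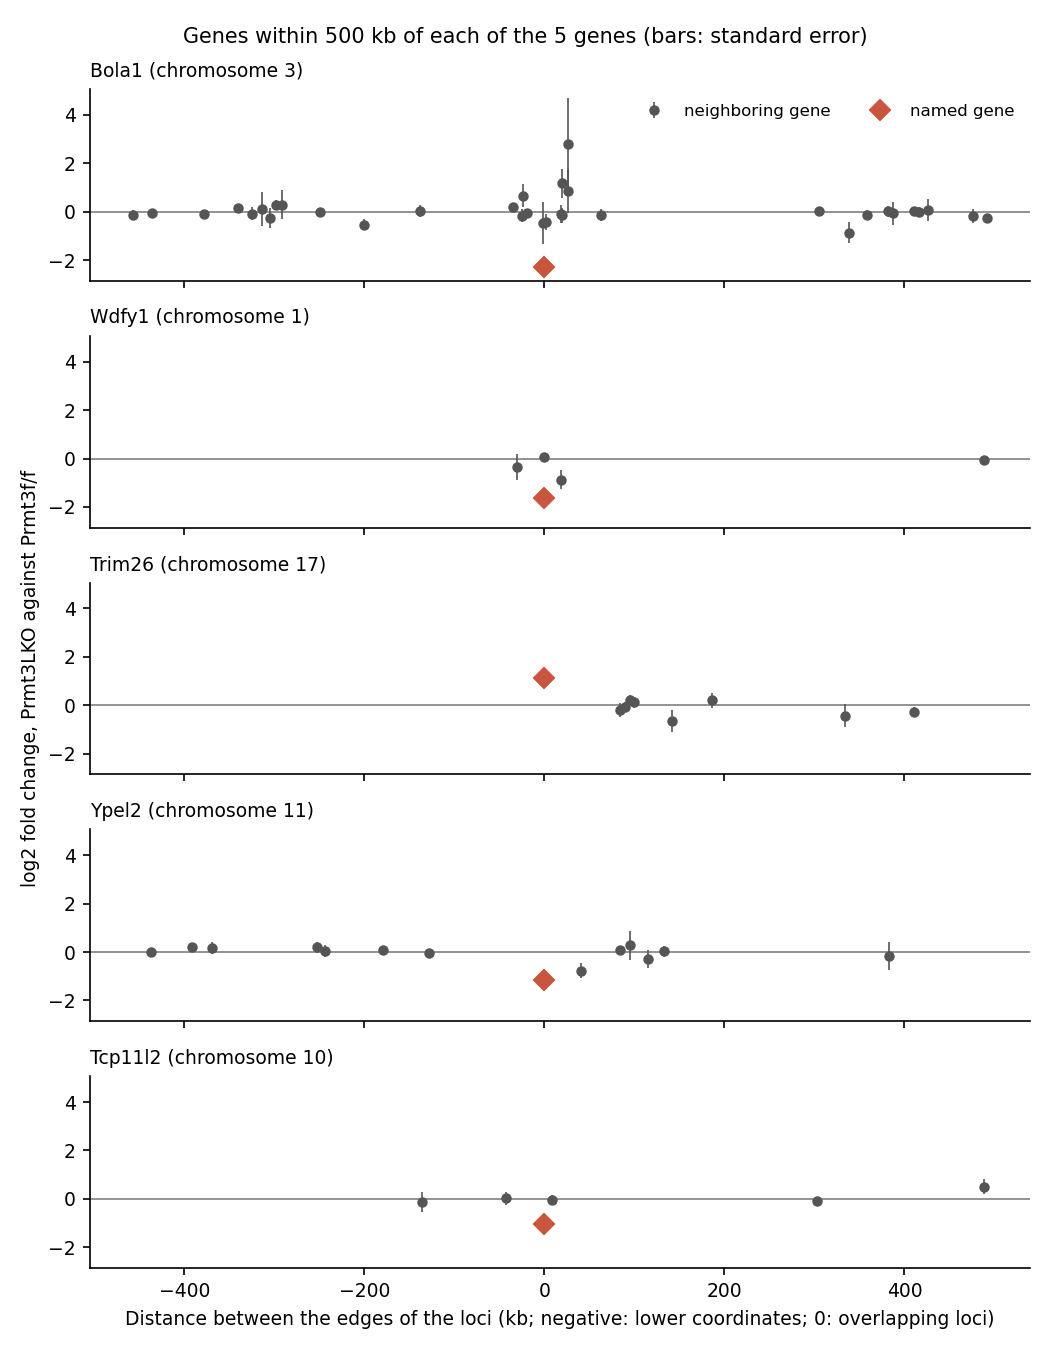
Log2 fold change of Prmt3LKO against Prmt3f/f (vertical axis; bars, standard error) against the distance in kb between the edges of the loci (horizontal axis), for each of the 5 genes (diamonds at 0) and their tested neighbors within 500 kb (circles). The median neighbor lies between -0.22 (Wdfy1) and 0.04 (Ypel2), Serpine2 beside Wdfy1 and Gdpd1 beside Ypel2 lie at -0.87 and -0.77, and the widest bar belongs to Hist2h2aa1 beside Bola1.

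The same window was read around the altered loci. Within 500 kb of Prmt3, 2 of 7 genes were tested, Nav2 at a log2 fold change of 0.42 and Htatip2 at 0.61 (SE 0.26), the latter at an unadjusted p of 0.0458 by edgeR and an adjusted p of 0.750. Their groups overlapped. Around Speer6-ps1, the pseudogene in the full name of the Alb-Cre allele, Gdi2, Fam208b and Asb13 were tested and lay between -0.10 and 0.11. None of the 5 selected genes lies on chromosome 13, where the table places Speer6-ps1.

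Wdfy1 is known to differ in expression between substrains of C57BL/6 mice, as are Nnt, Ide and Entpd4, so 10 other genes known for differences between laboratory strains were read beside it. Of these, 8 were tested, and 0 passed an unadjusted p of 0.05 in edgeR, beside 4.37% lower and 2.2% higher of all genes. By the adjusted p, 0 were called. The groups did not overlap for 0 of the 8, beside 6.6% lower and 5.56% higher of all genes. Among only 8 genes, a count of 0 lies near these shares. Nnt, the mitochondrial transhydrogenase that carries a deletion in C57BL/6J, had 965, 1174 and 1676 counts in Prmt3f/f and 1040, 1100 and 904 in Prmt3LKO, a log2 fold change of -0.04 (SE 0.17). Ide, insulin-degrading enzyme, was also at -0.04 (SE 0.16), and its neighbor Fgfbp3 had 12, 9 and 12 counts against 10, 0 and 10. Glo1 (0.41, SE 0.19), Alad (0.26, SE 0.15) and Hc (0.02, SE 0.25) overlapped between groups. Gpnmb was at -1.55 (SE 0.94) through 1451 counts in Prmt3f/f tumor 66, where the other 5 tumors had 77 to 253, and at 0.54 without that tumor. Gbp2b was at -0.79 (SE 0.51). H2-Ea-ps, the MHC class II gene that C57BL/6 mice do not transcribe, had 0 counts in all 6 tumors, where 3 counts would have been 0.107 to 0.163 CPM. Entpd4 was also listed at 0 in all 6. Near-identical copies were searched for the 5 selected genes alone, so this 0 is not read as absence of Entpd4 RNA. Counts per gene hold no variant calls, so a strain origin of any of the 5 differences was not tested. Only the Prmt3LKO group carries Alb-Cre, which came from another supplier, so the origin of that line and the loss of Prmt3 cannot be told apart.

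The other members of the 5 families were read next. BOLA2 and BOLA3 are the other BolA proteins. Bola2 had 176, 137 and 159 counts in Prmt3f/f and 126, 155 and 168 in Prmt3LKO (log2 fold change 0.17, SE 0.20), and Bola3 was at 0.15 (SE 0.19). Wdfy2 (-0.004, SE 0.21) and Wdfy3 (0.03, SE 0.16), further FYVE and WD-repeat genes, overlapped between groups. Wdfy4, which acts in cross-presentation by dendritic cells, had 308, 257 and 247 counts in Prmt3f/f and 131, 156 and 165 in Prmt3LKO. Its log2 fold change was -0.61 (SE 0.21), lower in every Prmt3LKO tumor, with an adjusted p of 0.684 by edgeR.

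Of the TRIM genes near Trim26, Trim39 was at 0.20 (SE 0.16), higher in every Prmt3LKO tumor by a gap of only 0.0097. Trim10, Trim15, Trim31 and Trim40 had at most 3 counts in any tumor. Ypel3 (-0.16, SE 0.22) and Ypel5 (0.007, SE 0.17) overlapped between groups. Ypel4 was at -1.06 with a large error (SE 0.51), from 95, 56 and 234 counts in Prmt3f/f and 40, 29 and 74 in Prmt3LKO. It was at -0.52 without Prmt3f/f tumor 71 and at -1.51 without Prmt3LKO tumor 94. Ypel1 had too few counts to be tested, with 14, 14 and 13 against 8, 8 and 7. Tcp11l1 was at 0.15 (SE 0.22), and Tcp11 had no count. Among the 10 tested relatives, 1 was lower and 0 higher at an unadjusted p under 0.05, beside 4.37% and 2.2% of all genes. The groups did not overlap for 1 relative lower (Wdfy4) and 1 higher (Trim39), beside 6.6% and 5.56% of all genes. The median log2 fold change was 0.02, against 0.00 over all genes.

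**Figure D4:**
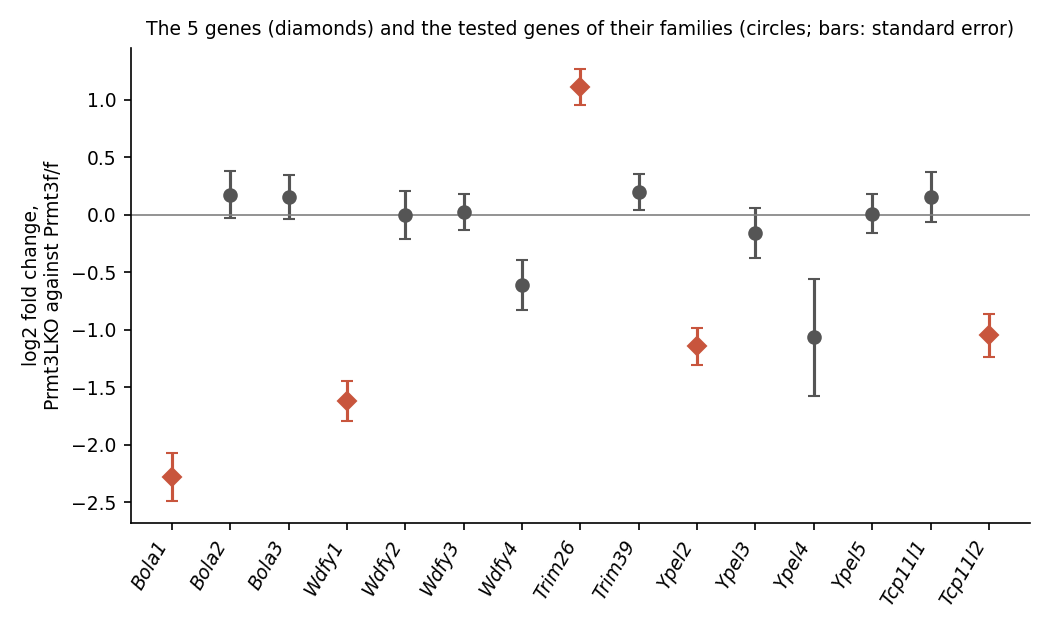
Log2 fold change of Prmt3LKO against Prmt3f/f (vertical axis; bars, standard error) for the 5 genes (diamonds) and the 10 tested genes of their families (circles). The diamonds lie beyond 1 in absolute value, but they were selected for their split of these same tumors, so nothing is read from that. Among the circles, only Ypel4 lies beyond 1, at -1.06, or -0.52 without Prmt3f/f tumor 71. Of all genes tested, 3.89% have an absolute log2 fold change of at least 1.

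The genes of iron-sulphur cluster assembly, in which BOLA1 acts, were read without Bola1. Of the 28 tested, 0 were lower and 4 higher at an unadjusted p under 0.05, beside 4.37% and 2.2% of all genes. Among 28 genes, a count of 0 lower lies near its share. By the adjusted p, edgeR called 0. The median log2 fold change was 0.14. The 4 genes, named after their values were seen, were Glrx5, the partner of BOLA1 (0.61, SE 0.23), Ciapin1 of the cytosolic pathway (0.53, SE 0.16), Nubpl, a complex I assembly factor (0.64, SE 0.24), and Lias, lipoyl synthase (0.34, SE 0.14). Glrx5 was at 40.7, 34.6 and 36.7 CPM in Prmt3f/f and 47.8, 45.3 and 78.1 CPM in Prmt3LKO, with tumor 94 far above the others. Without tumor 94, Glrx5 was at 0.32. The groups of Glrx5, Lias, Ciapin1 and Isca1 did not overlap, 4 of 28 that were higher beside 5.56% of all genes.

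TLR3 and TLR4 signaling through TRIF, to which WDFY1 and TRIM26 have been linked, was read in the same way. Of 21 further genes tested, 1 was lower and 0 higher at an unadjusted p under 0.05, near the 4.37% and 2.2% of all genes, and the median log2 fold change was -0.11. The gene was Tlr3, the receptor for double-stranded RNA, at -0.50 (SE 0.20) and an adjusted p of 0.741 by edgeR. The groups did not overlap for 2 genes lower (Tlr3 and the transcription factor Irf3) and 2 higher (Traf6 and the kinase Tbk1) of the 21, beside 6.6% and 5.56% of all genes. Interferon beta (Ifnb1) had no count.

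The genes most like each of the 5 were found by Pearson's r of log2 CPM over the 6 tumors, which share the genotype split. Closest to Bola1 were Mirt1 (r = 0.997), Noxa1 (0.993) and Ticrr (0.992). Closest to Wdfy1 were Top2b (0.999), Mirt1 (0.992) and Ticrr (0.991), so that Mirt1 and Ticrr stood beside both. Mirt1, a noncoding RNA, had 14, 12 and 16 counts in Prmt3f/f and 2, 2 and 1 in Prmt3LKO. Top2b, a DNA topoisomerase, followed the tumor-to-tumor order of Wdfy1 at a log2 fold change of -0.39, much smaller than that of Wdfy1. Closest to Trim26 were Cdv3 (0.993), the mitochondrial elongation factor gene Tsfm (0.992) and the mitochondrial ribosomal protein gene Mrpl20 (0.990). Ypel2 had Sipa1l3 (0.991), Cd38 (0.988) and Wwtr1 (0.988), and Tcp11l2 had Arsk (0.995), Maml3 (0.991) and Gbas (0.988). At r of at least 0.95 there were 36, 44, 38, 50 and 34 genes for Bola1, Wdfy1, Trim26, Ypel2 and Tcp11l2.

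Markers of other cells in the tumors were read beside these results. Of 8 leukocyte markers, 5 were lower at an unadjusted p under 0.05, beside 4.37% of all genes, and 6 did not overlap, all lower in Prmt3LKO, beside 6.6%. Their summed level was 165 to 212 CPM in Prmt3f/f and 115 to 163 CPM in Prmt3LKO, and none was at 0. The part of leukocytes in the differences of the 5 genes was not tested. For the 5 hepatocyte markers the summed level was 129003 to 190840 CPM against 141478 to 155378 CPM. Of them, 0 passed an unadjusted p of 0.05 in edgeR, beside 4.37% lower and 2.2% higher of all genes. Markers of stellate cells and fibroblasts (4), endothelium (3) and cholangiocytes (3) also had 0 below 0.05. Their groups overlapped, where 6.6% and 5.56% of all genes did not. In lists this short, a count of 0 lies near these shares. Of 4 genes of liver tumors, 1 was lower and 0 higher at an unadjusted p under 0.05, beside 4.37% and 2.2% of all genes. The groups overlapped for all 4. The 1 gene was H19, at -3.15 (SE 1.30), with 4358 counts in Prmt3f/f tumor 7 and 32 to 355 in the other tumors. Igf2 was at -1.23 (SE 0.57) and Gpc3 at -0.76 (SE 0.40). Afp was at 0.32 (SE 0.57), with 4801 counts in Prmt3LKO tumor 93 and 784 to 2427 in the other tumors.

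The gene models bear on the counts. Dividing count by FPKM gave a gene length of 1536 bases for Bola1, 8153 for Wdfy1, 11247 for Trim26, 4847 for Ypel2 and 4110 for Tcp11l2. The exons of GENCODE M21, which may not be the annotation counted, cover 1082, 6488, 6868, 4847 and 3438 bases, so Ypel2 alone matched. Bola1, Ypel2 and Tcp11l2 aligned to no other gene over 100 bases at 95% identity or more. Wdfy1 aligned to 16 other genes and Trim26 to 70, over at most 166 and 153 bases in 1 alignment, so some of their reads may be shared. The total part of each gene covered by such alignments was not measured. Mrpl44, which overlaps the Wdfy1 locus, is among the 16.

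The promoters of Bola1, with the largest difference, and Trim26, the gene that was higher, are shown to place the start sites beside the loci. They come from RefSeq on GRCm38.p6 (250 bases before to 50 after the start, on the strand of the gene), which matched 4 of the 5 genes, all but Wdfy1. Capitals mark matches to 5 short motifs that were chosen after the sequences were seen. In Bola1 (chr3:96197537-96197836, minus strand) they mark an ETS core, CCGGAA, that begins 22 bases before the start, and in Trim26 (chr17:36836896-36837195, plus strand) a cyclic AMP response element, TGACGTCA, at 87 bases before it and a pair of CCAAT boxes:
Bola1: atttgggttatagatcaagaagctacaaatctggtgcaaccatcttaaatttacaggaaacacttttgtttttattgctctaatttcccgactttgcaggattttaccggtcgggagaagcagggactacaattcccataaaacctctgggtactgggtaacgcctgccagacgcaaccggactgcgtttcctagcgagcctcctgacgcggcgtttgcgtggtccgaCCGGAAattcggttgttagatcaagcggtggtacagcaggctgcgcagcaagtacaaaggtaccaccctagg
Trim26: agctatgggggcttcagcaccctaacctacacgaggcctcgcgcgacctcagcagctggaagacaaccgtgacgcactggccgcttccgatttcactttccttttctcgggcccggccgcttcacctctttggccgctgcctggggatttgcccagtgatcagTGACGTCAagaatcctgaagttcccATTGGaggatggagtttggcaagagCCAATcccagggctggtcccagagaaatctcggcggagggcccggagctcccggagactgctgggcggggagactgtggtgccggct
The RefSeq start of Bola1 lies 22123 bases inside the deposited locus, and that of Trim26 12 bases from its edge. Searched on both strands, the cyclic AMP response element is in 1.79% of 32851 mouse promoters, the ETS core in 14.9% and CCAAT in 37.4%. The Ypel2 promoter (chr11:86993713-86994012) held 1 CCAAT box. The Tcp11l2 promoter (chr10:84576697-84576996) held none of these, and no promoter of the 4 held the E-box CACGTG (7.15%) or the FOXO element TGTTTAC (3.65%). The GC content was 49.3% for Bola1, 61.7% for Trim26, 72.7% for Ypel2 and 59.0% for Tcp11l2, where the median promoter had 52.7%. A match is a description of the letters and says nothing of binding.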

How the data were processed

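RNA-seq had been run on 3 Prmt3f/f and 3 Prmt3LKO tumors, grouped by the genotype in the labels. Alignment by the authors used HISAT2 2.0.4 and GRCm38; the submitters' processing notes also name StringTie 1.3.0. How reads were counted, on which annotation and whether by strand, is not given in the sources used here. The authors deposited 1 table of counts and FPKM. The deposited count values are whole numbers, not normalized. The deposited FPKM values divide the count by the gene length and the total count, which was checked on 8975 genes.

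Genes were filtered with filterByExpr (minimum count 10, minimum total 15), scaled by TMM and fitted in edgeR 4.0.16 (R 4.3.3; quasi-likelihood test, p adjusted by Benjamini-Hochberg over 13892 genes). SE is the log2 fold change divided by the square root of F. CPM are counts per 1000000 of the TMM-scaled total count, and log2 CPM use a prior count of 2. DESeq2 1.42.0 and limma-voom (limma 3.58.1) were alternatives, besides no TMM, other filters, each tumor left out and FPKM with a pseudocount of 1 (description only). The p-values weigh the difference between groups against the spread between tumors of a group. Tumors that share a mouse would not be independent, and the p-values could then be too small.

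The 5 genes, the 10 gene lists and the tests were chosen with earlier results of these data known. Named genes were the 5 genes, their nearest tested neighbors, neighbors within 500 kb with groups that do not overlap, the 3 genes of highest r for each, all family and strain genes, Prmt3, and the first 3 other genes by F. Other genes were named after their values were seen. Near-identical copies were searched by megablast among GENCODE M21 transcripts (100 bases, 95% identity).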

Additional observations from a re-analysis of the deposited data

How the results depend on the processing

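The direction and size of the 5 genes held under DESeq2, limma-voom, library size without TMM and both filters. Those fits use the same counts on which the genes were chosen, so they add no separate support. On the scale of log2(FPKM + 1), which shrinks low genes, the log2 fold changes were -1.75 for Bola1, -1.08 for Wdfy1, 0.70 for Trim26, -0.76 for Ypel2 and -0.81 for Prmt3. Leaving out 1 tumor gave -1.80 to -1.34 for Prmt3, and DESeq2 put Prmt3 at -1.55 and past the threshold. The count of genes called, 0 by edgeR, was 43 lower and 9 higher by DESeq2, 2 lower without a filter beyond 1 count, and 0 in each direction with any 1 tumor left out; the cause was not tested.

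The 1 neighbor at an unadjusted p under 0.05 became 3 with DESeq2, 2 without TMM and 6 without the filter. Within 1000 kb (130 tested) there were 4. With 1 tumor left out there were 0 to 5 (5 without Prmt3f/f tumor 71, 2 without tumor 7 and 0 without Prmt3LKO tumor 92). The counts over all genes moved as well. They were 629 lower and 306 higher of 13892 with DESeq2, and 643 and 213 of 13892 without TMM. Without the filter they were 830 and 357 of 20277. They were 728 and 390 of 14222 without tumor 71, and 695 and 565 of 14150 without tumor 7. Without tumor 92 they were 418 and 248 of 14270. The number of neighbors tested is not given for the fits with another filter or fewer tumors, so their counts are not like for like. All-gene counts of groups apart are not given for these settings, so the counts of neighbors apart in other fits have no share beside them. The 2 neighbors with groups apart became 6 without the filter, 1 at a mean of at least 1 CPM, 1 within 250 kb (35 tested), 11 within 1000 kb, and 6 to 13 with 1 tumor left out (13 without Prmt3f/f tumor 71), where a smaller group overlaps less easily. Without TMM, Wdfy3 turned to -0.000068, Ypel5 to -0.022 and Hc to -0.019. With 1 tumor left out, these genes changed sign in at least 1 fit, of which Gpnmb was farthest from 0 in the full fit, at -1.55: Wdfy2 ranged from -0.12 to 0.13, Wdfy3 from -0.084 to 0.11, Ypel5 from -0.10 to 0.17, Nnt from -0.15 to 0.054, Ide from -0.16 to 0.073, Fgfbp3 from -0.90 to 0.21, Hc from -0.18 to 0.20, Gpnmb from -2.08 to 0.54, Mrpl44 from -0.017 to 0.17, Ap1s3 from -0.78 to 0.062, Rnf39 from -0.43 to 0.052, Polr3b from -0.15 to 0.058 and Ckap4 from -0.23 to 0.22. Of 578 values for 53 single genes outside the 5, 545 kept direction and side of the threshold. No paired analysis was possible because the replicate numbers are not shared between the groups. Ypel1, Sv2a and Fgfbp3 are limited by depth.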
